A study of Mus musculus with 6 samples.

Results

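Toll-like receptors are the germline-encoded sensors with which neutrophils recognise microbial lipids, proteins and nucleic acids, and CD14 is the co-receptor that hands lipopolysaccharide to TLR4. The genes described here are Tlr1, Tlr2, Tlr4, Tlr5, Tlr6, Tlr7, Tlr8, Tlr9, Tlr13 and Cd14. They were chosen by name, and all 10 were found among the 47561 features listed for each library. The transcriptomes came from neutrophils sorted by flow cytometry out of mouse peripheral blood, in 3 samples taken after 30 days of AVP administration and 3 control samples. What AVP stands for is not spelled out in the labels, and the dose and route, the vehicle given to controls, and the strain, sex and age of the mice are not given in the sources. Whether samples of one group are separate animals is not stated either. A p-value here sets the group difference against the spread among these samples within groups, which may be technical.

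As background, Toll-like receptors signal as dimers through a cytoplasmic TIR domain that recruits the adaptor MyD88, which leads to NF-kB and MAP kinase activation. TLR2 pairs with TLR1 for triacylated and with TLR6 for diacylated bacterial lipopeptides at the cell surface, TLR4 with its partner MD-2 binds lipopolysaccharide, and TLR5 binds flagellin. TLR7, TLR8, TLR9 and TLR13 act in endosomes on nucleic acids. In neutrophils, ligands of the surface receptors prolong survival and prime adhesion, phagocytosis and the oxidative burst.

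Levels are in FPKM, which counts sequenced fragments per kilobase of a transcript, relative to the depth of the library. The depth was estimated from the most frequent low value of FPKM times length in short pseudogenes, sought within a preset range. With that value taken as 1 fragment, the depth was about 14199000 to 16845000 fragments per library. A level of 1 FPKM then corresponded to about 46 fragments of the Tlr2 transcript and 25 of the shorter Cd14 transcript. These numbers do not by themselves give the precision of a level. Of the tested genes with a mean of 5 to 20 FPKM, 22.9% were listed at 0 in at least 1 library. The neutrophil markers S100a8, S100a9, Csf3r, Cxcr2, Ly6g, Retnlg, Mmp8 and Mmp9 were detected in all 6 libraries, and their summed level, nearly all of it S100a8 and S100a9, was 165339 to 193799 FPKM after AVP and 169837 to 190029 FPKM in controls. Single markers could differ: Retnlg was at 10512, 11049.7 and 9729 FPKM after AVP and 4925, 5057 and 5538 FPKM in controls, and Mmp9 at 197, 101 and 143 FPKM after AVP and 374, 229 and 231 FPKM in controls. Other cells also contributed transcripts. The largest sum was that of 5 red cell markers, nearly all haemoglobin. It was 242554, 119303 and 135395 FPKM in AVP replicates 1 to 3 and 102661, 154851 and 139557 FPKM in control replicates 1 to 3. The 4 platelet markers summed to 79.8 to 212 FPKM after AVP and 99.5 to 199 FPKM in controls. The sum of 12 monocyte markers was 956, 1239 and 239 FPKM in AVP replicates 1 to 3 and 596, 939 and 1299 FPKM in control replicates 1 to 3. The sum of 8 B cell markers was 1264, 4847 and 3795 FPKM after AVP and 6049, 7751 and 4916 FPKM in controls. T and NK cell markers summed to 151 FPKM in AVP replicate 3 and to 2.01 to 12.2 FPKM elsewhere, and basophil and mast cell markers to 303 FPKM in AVP replicate 1 and to 0 to 12.9 FPKM elsewhere. The 8 dendritic cell markers summed to 11.99, 39.7 and 17.3 FPKM after AVP and 15.04, 23.6 and 23.8 FPKM in controls, with Xcr1, Siglech and Cox6a2, 3 of the 8, listed at 0 in every library.

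Of the promoters, the stretches of Tlr2 that match an NF-kB motif are shown. Tlr2 was the one gene with a kappaB match, the DNA motif of NF-kB, among the 7 members whose promoter is in the RefSeq table of GRCm38.p6 (300 bases, from 250 before to 50 after a transcription start). Tlr4, Tlr7 and Cd14 have no entry. Matches on either strand were found for 9.55% of the 27025 genes of that table (8.46% of its 32851 promoters), so 1 gene among 7 is near what the table as a whole holds. The windows of 30 bases around the 2 places in the Tlr2 promoter are shown 5′ to 3′ on the gene's minus strand, with the kappaB match in capitals, at chr3:83841762-83841791, where it begins 173 bases before the start site of the table, and at chr3:83841597-83841626, where it begins 8 bases before that site. The site, at position 83841608, lies 216 bases inside the RefSeq interval of the gene, so both windows are within the annotated gene and not upstream of its 5′ end.
Tlr2 first match: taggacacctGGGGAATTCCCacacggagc
Tlr2 second match: ccctgacctgGGGACATCCCcttccctcac
The Tlr2 window also held the SP1 motif GGGCGG at 2 places, as did that of Tlr5 (38.2% of all genes had it in a promoter), and no motif overlapped another. The PU.1 motif GAGGAA lay in the windows of Tlr1, Tlr8, Tlr9 and Tlr13 (31.3% of genes). The AP-1 motif TGANTCA was found for Tlr9 (8.97%), and the C/EBP motif TTGCNNAA for Tlr6, Tlr8 and Tlr13 (12.2%). The letters TATAAA of the TATA motif were in windows of Tlr6 and Tlr8 (15.7%). They began at -180, -150 and -109 from the start site for Tlr6 and at -91 for Tlr8. The C/EBP match of Tlr6 lay in another window of that gene. These matches describe letters, and binding was not measured.

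Tlr1 and Tlr6 lie next to each other on chromosome 5 and their transcripts are in part identical, which limits how well short reads can be divided between them. In the GENCODE M21 transcripts of GRCm38, 873 of the 2783 bases of Tlr1 (31.4%) lay in runs of at least 30 bases shared with Tlr6. The longest run was 229 bases, and 2 runs exceeded the 151 bases of a read. A single read was identical to Tlr6 over its whole length from 137 of the 2633 places where it could start in Tlr1 (5.2%). No such run was shared between Tlr2 and Tlr1, between Tlr2 and Tlr6, or between Tlr7 and Tlr8. The longest run is shown with 10 bases on each side, all of it coding sequence on the minus strand, at chr5:64925527-64925775 for Tlr1 and chr5:64953818-64954066 for Tlr6. Capitals mark the bases that differ.
Tlr1: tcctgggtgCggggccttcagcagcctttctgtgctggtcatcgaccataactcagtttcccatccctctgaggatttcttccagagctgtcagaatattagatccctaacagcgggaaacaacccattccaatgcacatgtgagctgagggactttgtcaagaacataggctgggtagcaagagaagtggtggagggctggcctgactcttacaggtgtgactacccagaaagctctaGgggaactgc
Tlr6: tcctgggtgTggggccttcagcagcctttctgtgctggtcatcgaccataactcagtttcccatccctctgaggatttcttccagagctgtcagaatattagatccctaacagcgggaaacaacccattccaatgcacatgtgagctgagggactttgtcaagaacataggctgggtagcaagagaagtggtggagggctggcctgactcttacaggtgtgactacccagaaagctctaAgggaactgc
Reads that lie wholly in such runs cannot be assigned by their letters, which leaves some uncertainty in the single levels of Tlr1 and Tlr6, and their sum is given beside them.

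The comparison of AVP with control asks which of these receptors differed in blood neutrophils after the 30 days. Tlr2 and Cd14 were higher in every AVP library than in every control library, Tlr1 was lower in every AVP library, and the other 6 detected genes overlapped between the groups. A filter of at least 1 FPKM in 3 or more libraries kept 9 of the 10. By limma, with an adjusted p under 0.05 as the threshold, 0 of these were higher and 0 lower, as for all 8523 genes tested (0% each way). Their adjusted p lay between 0.195 and 0.947. At an unadjusted p under 0.05, 2 were higher, against a background of 4.72% of all genes, and 1 was lower, against 3.75%. The groups did not overlap, AVP higher, in 2 of the 9 against 6.39% of all genes, and AVP lower in 1 of the 9 against 7.63%. The genes were chosen with earlier results of these data known, so these counts are a description. The median log2 fold change was 0.27 over the 9 genes and -0.04 over all genes tested.

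**Figure D1:**
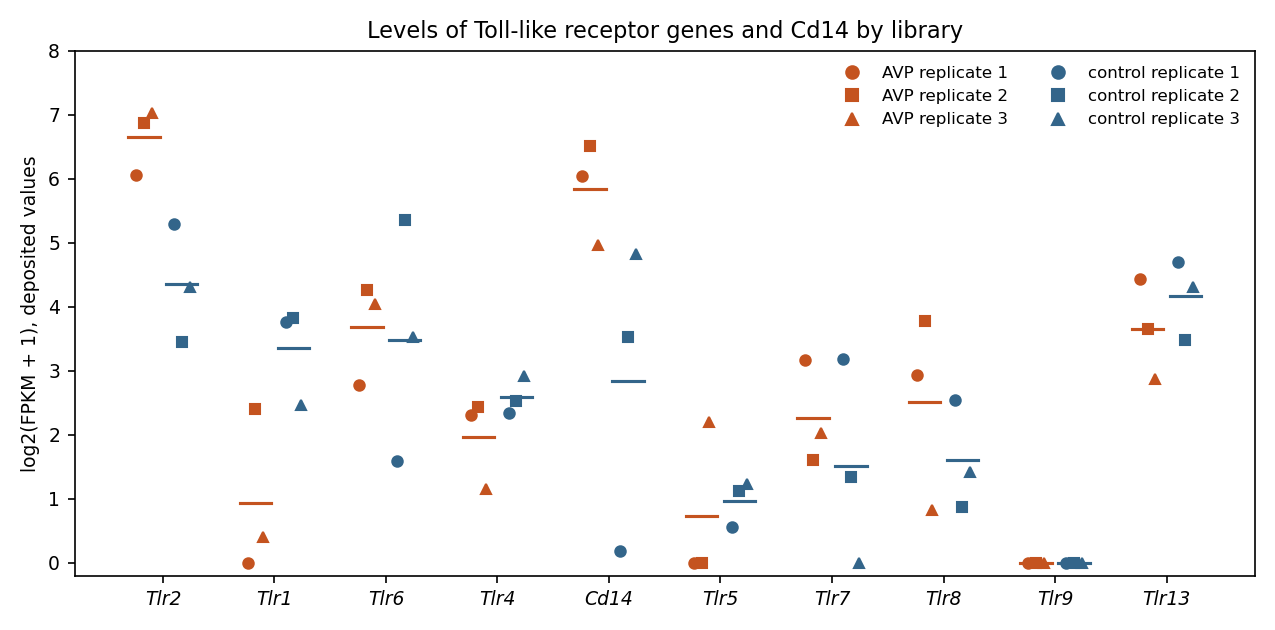
Level of each gene as log2(FPKM + 1) of the deposited values (y axis), with AVP libraries in orange and control libraries in blue. Symbols mark the replicate and lines the mean of 3 libraries. The AVP libraries lie above all controls for Tlr2 and Cd14 and below them for Tlr1, while the groups overlap for the remaining detected genes.

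Tlr2, the shared subunit of both lipoprotein receptors, was the most abundant Toll-like receptor transcript after AVP. It stood at 65.4, 116 and 129 FPKM in AVP replicates 1 to 3, and at 38.2, 9.92 and 18.8 FPKM in control replicates 1 to 3. The groups did not overlap, and the gap between the lowest AVP library and the highest control was smaller than the spread among the AVP libraries. The means were 103 ± 33.6 FPKM after AVP and 22.3 ± 14.5 FPKM in controls (SD, n = 3 each). The fitted log2 fold change was 2.38 (SE 0.49, 95% interval 1.24 to 3.52), which did not pass by limma (adjusted p = 0.195, unadjusted p = 0.0013, rank 57 of 8523 by p). By an exact two-sided permutation test p was 0.1, which is the lowest value a comparison of 3 with 3 can reach. Tlr1 and Cd14 also reached 0.1 by this exact test, and the other 6 tested genes had 0.2 to 0.9. The gene (identifier 24088, protein-coding) spans chr3:83836272-83841824.

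AVP replicate 3 had the highest Tlr2 level and the lowest monocyte marker sum of the 6 libraries, and control replicate 3 had the highest monocyte sum and 18.8 FPKM of Tlr2. In AVP replicates 1 and 2 the monocyte sum was 956 and 1239 FPKM beside 65.4 and 116 FPKM of Tlr2. The B cell marker sum was lower in every AVP library than in every control library. The log2 fold change was 2.21 without AVP replicate 3, the library with the high T and NK cell sum, and 2.62 without AVP replicate 1, the library with the high basophil and mast cell sum. The part of other cells in the Tlr2 difference was not tested. In bulk samples, more cells of a type and more RNA per cell cannot be told apart.

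Tlr1, the partner of TLR2 for triacylated lipopeptides, was lower in every AVP library. It was listed at 0, 4.28 and 0.318 FPKM in AVP replicates 1 to 3, and at 12.6, 13.1 and 4.51 FPKM in control replicates 1 to 3. The groups did not overlap, but AVP replicate 2 and control replicate 3 were close to each other. The log2 fold change was -2.39 (SE 0.82) and did not pass by limma (adjusted p = 0.426, unadjusted p = 0.0188). The fold change was -3.99 with a pseudocount of 0.1 and -1.19 with a pseudocount of 5, in place of the 1 used. Among tested genes with a mean of 5 to 20 FPKM, 690 of 3008 (22.9%) were listed at 0 in at least 1 library. The B cell marker sum was also lower in every AVP library, and their part in the result was not tested.

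Tlr6, the partner for diacylated lipopeptides, varied more between libraries of a group than between groups. It was at 5.84, 18.2 and 15.4 FPKM in AVP libraries, against 2.00, 39.7 and 10.6 FPKM in controls. Control replicates 1 and 2 bracketed all the other libraries. The log2 fold change was 0.27 (SE 0.92, 95% interval -1.86 to 2.40, adjusted p = 0.947 by limma). Within groups its SD on the log2 scale was 1.43, against a median of 0.70 among the 500 tested genes nearest in level. The end of the RefSeq interval of Tlr6 overlaps Fam114a1, on the opposite strand, and no source used here says whether the authors counted by strand.

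The sum of Tlr1 and Tlr6, which is less exposed to how shared reads were divided, was 5.84, 22.5 and 15.8 FPKM after AVP and 14.6, 52.9 and 15.1 FPKM in controls. The groups overlapped, and an exact two-sided permutation test gave p = 0.6 (n = 3 each). Tlr2 over this sum was 11.2, 5.16 and 8.18 after AVP and 2.61, 0.188 and 1.24 in controls. The ratio was thus higher in every AVP library (exact permutation p = 0.1, two-sided, n = 3 each). It reuses the Tlr2 levels already seen to lie apart and is not a separate finding.

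Cd14 encodes the glycosylphosphatidylinositol-anchored co-receptor that transfers lipopolysaccharide to TLR4 with MD-2 and also serves TLR2 ligands. It stood at 64.6, 90.7 and 30.1 FPKM in AVP replicates 1 to 3, and at 0.139, 10.6 and 27.3 FPKM in control replicates 1 to 3. The groups did not overlap, but AVP replicate 3 and control replicate 3 were almost level, and control replicate 1 had next to none. The means were 61.8 ± 30.4 FPKM after AVP and 12.7 ± 13.7 FPKM in controls (SD, n = 3 each). The log2 fold change of 3.06 was the largest of the 9 genes and also had the largest standard error (SE 1.08, 95% interval 0.58 to 5.54, adjusted p = 0.451 by limma, unadjusted p = 0.0217). It was 1.74 without control replicate 1 and 4.03 without control replicate 3. The within-group SD was 1.77 on the log2 scale, above 93.8% of the 500 genes nearest in level.

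Monocytes also express Cd14. Within each group, the libraries had the same order by Cd14 as by the monocyte marker sum. Most of that sum was Ctss and Ly6c2. Of the single markers, Ctss, Ccr2, F13a1 and Ear2 kept this order in both groups, and the others, such as Csf1r and Ly6c2, did not. In AVP replicates 1 to 3 the sum was 956, 1239 and 239 FPKM beside 64.6, 90.7 and 30.1 FPKM of Cd14. In control replicates 1 to 3 it was 596, 939 and 1299 FPKM beside 0.139, 10.6 and 27.3 FPKM of Cd14. Between the groups, the monocyte sums overlapped and the Cd14 levels did not. Of the 12 monocyte markers, 4 had a fitted fold change above 0. The part of monocyte RNA in the Cd14 difference was not tested.

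**Figure D2:**
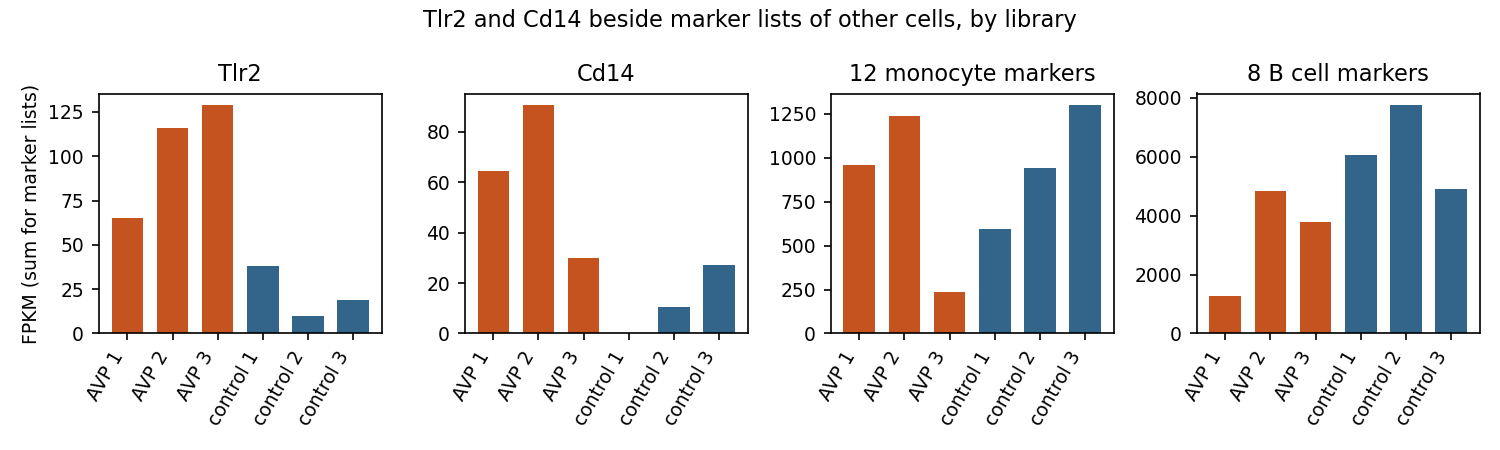
Tlr2, Cd14 and the summed FPKM of 12 monocyte and 8 B cell markers (y axes, each panel with its own scale) in AVP libraries (orange) and control libraries (blue). AVP replicate 3 has the lowest monocyte sum (239 FPKM) and the highest Tlr2 level (129 FPKM), and the B cell sum is lower in every AVP library.

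Tlr4, the lipopolysaccharide receptor itself, was low and did not separate the groups. It was at 3.94, 4.41 and 1.23 FPKM in AVP libraries, against 4.09, 4.78 and 6.53 FPKM in controls. AVP replicate 3 was the lowest, and the other 5 libraries lay close together. The log2 fold change was -0.56 (SE 0.63, 95% interval -2.03 to 0.90, adjusted p = 0.859 by limma). Cd14 over Tlr4 was 16.4, 20.6 and 24.4 after AVP and 0.0341, 2.22 and 4.18 in controls, and Tlr2 over Tlr4 was 16.6, 26.3 and 105 after AVP and 9.35, 2.07 and 2.87 in controls. Each ratio was higher in every AVP library (exact permutation p = 0.1, two-sided, for each, n = 3 each). They reuse the Cd14 and Tlr2 levels already seen to lie apart and are not separate findings.

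Tlr5, the flagellin receptor, was near the filter. It was listed at 0, 0 and 3.6 FPKM in AVP libraries, against 0.477, 1.18 and 1.35 FPKM in controls. A single AVP library carried all of its signal in that group. Its log2 fold change was -0.22 (SE 0.69, adjusted p = 0.946 by limma), with a sign that changed under 3 alternatives.

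Among the endosomal receptors, Tlr13, the mouse sensor of bacterial ribosomal RNA, was the most abundant on average. It was at 20.7, 11.6 and 6.33 FPKM in AVP libraries, against 25.1, 10.1 and 18.9 FPKM in controls. The groups overlapped, and the log2 fold change was -0.43 (SE 0.58, 95% interval -1.77 to 0.92, adjusted p = 0.884 by limma).

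Tlr7, which recognises single-stranded RNA, was at 8.02, 2.04 and 3.06 FPKM in AVP libraries, and listed at 8.13, 1.54 and 0 FPKM in controls. Replicate 1 of each group was highest, and the groups overlapped (log2 fold change 0.82, SE 0.92, adjusted p = 0.859 by limma). The fold change was 0.07 without control replicate 3, the library listed at 0, and 1.64 without control replicate 1. Tlr8, a related RNA sensor next to Tlr7 on the X chromosome, was at 6.61, 12.7 and 0.763 FPKM in AVP libraries, against 4.83, 0.829 and 1.69 FPKM in controls. Its lowest and highest libraries were both AVP libraries (log2 fold change 0.95, SE 0.90, adjusted p = 0.831 by limma). The fold change was 0.37 without AVP replicate 2, the highest library, and 1.82 without AVP replicate 3, the lowest. AVP replicate 3, the lowest, was also the library with the lowest monocyte marker sum. Among controls, replicate 1 had the lowest monocyte sum (596 FPKM) and the highest Tlr8. Control replicate 3 had the highest sum (1299 FPKM) and 1.69 FPKM of Tlr8. The part of monocyte RNA in the Tlr8 levels was not tested.

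Tlr9, the sensor of unmethylated CpG DNA, was listed at 0 in all 6 libraries and was the 1 gene of the 10 that did not pass the filter. The summed level of Tlr7, Tlr8, Tlr9 and Tlr13 was 35.4, 26.3 and 10.2 FPKM after AVP and 38.1, 12.5 and 20.6 FPKM in controls. The group means of this sum were 23.9 ± 12.8 FPKM after AVP and 23.7 ± 13.1 FPKM in controls (SD, n = 3 each).

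**Figure D3:**
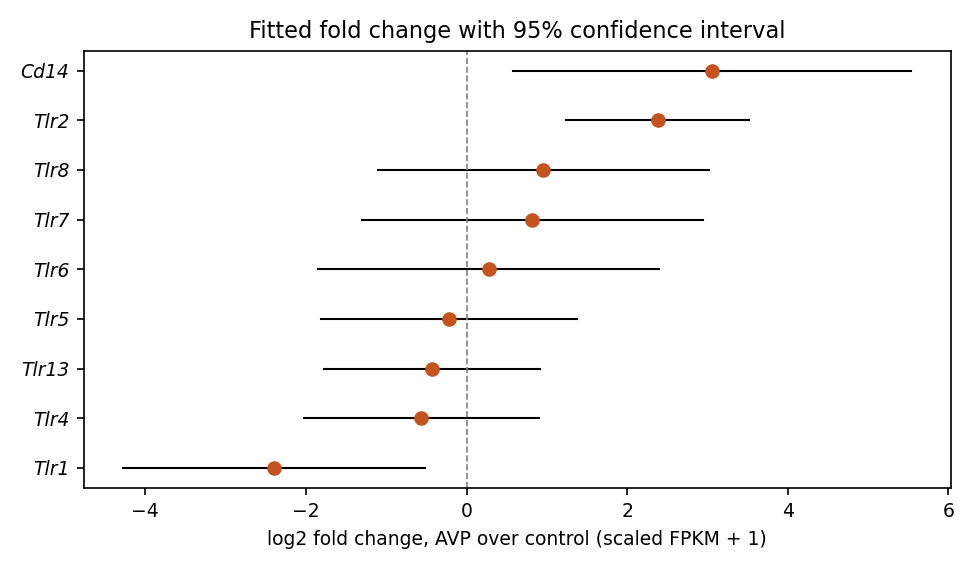
Fitted log2 fold change of AVP over control (x axis) for the 9 tested genes, with points for the estimate and lines for the 95% confidence interval of the limma fit. The intervals of Cd14, Tlr2 and Tlr1 lie off 0 before adjustment over 8523 genes, and the other 6 span 0.

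Within a library, the order of the receptors differed between the groups. Tlr2 was the highest Toll-like receptor in all 3 AVP libraries, with 59.2%, 68.6% and 80.8% of the summed Toll-like receptor FPKM. In control replicates 1 to 3 it held 40.0%, 12.2% and 30.1%, and the highest gene was Tlr2 in replicate 1, Tlr6 in replicate 2 and Tlr13 in replicate 3. The share was higher in every AVP library (exact permutation p = 0.1, two-sided, n = 3 each). Like the ratios, it reuses the Tlr2 levels and is not a separate finding.

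The summed level of all Toll-like receptors was 111, 169 and 160 FPKM after AVP and 95.5, 81.3 and 62.3 FPKM in controls. Without Tlr2 it was 45.1, 53.2 and 30.7 FPKM after AVP and 57.3, 71.4 and 43.5 FPKM in controls. The groups were apart in the full sum and overlapped once Tlr2 was taken out.

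By mean FPKM after AVP the order was Tlr2, Cd14, Tlr6, Tlr13, Tlr8, Tlr7, Tlr4, Tlr1, Tlr5 and Tlr9. Tlr2 exceeded Cd14 in each of the 3 AVP libraries, although their ranges overlapped, and Cd14 stood clear of Tlr6. From Tlr6 down, the ranges of all neighbours overlapped. In controls the order was Tlr2, Tlr13, Tlr6, Cd14, Tlr1, Tlr4, Tlr7, Tlr8, Tlr5 and Tlr9, and every neighbouring pair overlapped except Tlr5 and Tlr9.

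**Figure D4:**
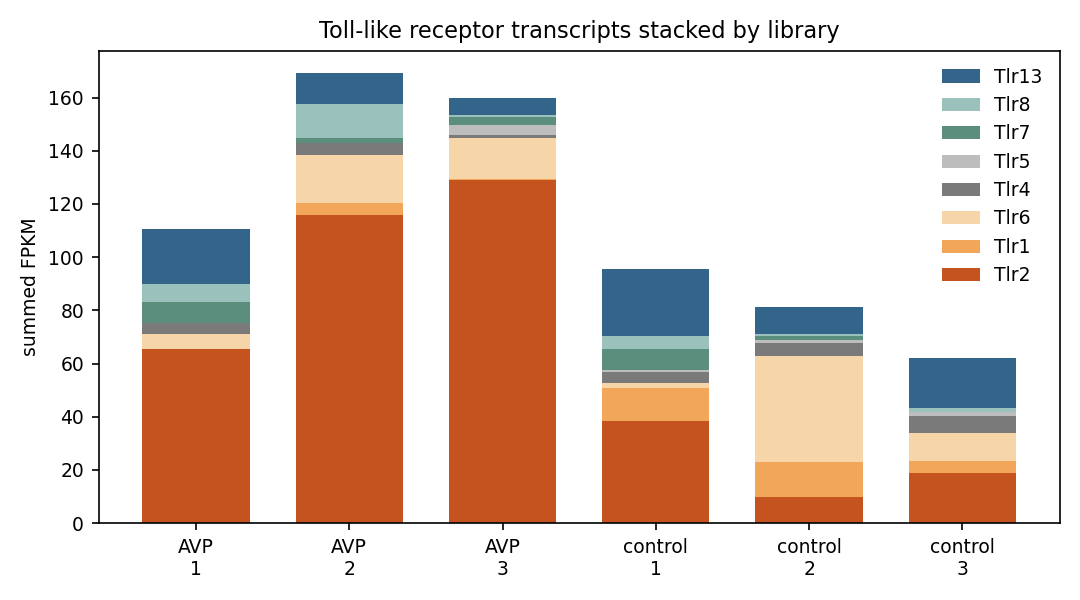
Summed FPKM of the 8 detected Toll-like receptor genes (y axis), stacked by gene, in 3 AVP libraries and 3 control libraries. Tlr2 fills 59.2% to 80.8% of each AVP column and 12.2% to 40.0% of each control column, and Tlr6 is largest in control replicate 2.

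Genes with the most similar pattern were sought among 4520 tested genes with a mean of at least 5 FPKM, by Pearson correlation of the log2 values over the 6 libraries. The highest of so many correlations are large by selection and are given as a description. Closest to Tlr2 were Bmx (r = 0.996), Smndc1 (0.98), Akap13 (0.979) and Serbp1 (0.979). Bmx, a tyrosine kinase of the TEC family, was at 26.4, 39 and 35.5 FPKM after AVP and 20.4, 10.1 and 14.4 FPKM in controls. It followed Tlr2 with a smaller range, and its log2 fold change was 1.23 (SE 0.40, adjusted p = 0.397 by limma).

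Closest to Cd14 were the feature listed as Mir692-2 (r = 0.991), Stat3 (0.987), Ceacam10 (0.985) and Gadd45g (0.984). Gadd45g, a stress-induced growth arrest gene, was at 128, 120 and 64.1 FPKM after AVP and 2.74, 16.0 and 37.3 FPKM in controls. Like Cd14, it was lowest in control replicate 1, and AVP replicate 3 was the lowest of its group (log2 fold change 2.98, SE 0.79, adjusted p = 0.303 by limma).

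The other genes of Toll-like receptor signalling were described from a list of 45, all found, of which 31 passed the filter. By limma, 0 of these passed upward and 0 downward with an adjusted p under 0.05, and with an unadjusted p under 0.05 there was 1 higher, against 4.72% of all genes, and 0 lower, against 3.75%. Fitted fold changes were above 0 in 12 and below 0 in 19, with a median of -0.07, where 47.9% of all tested genes were above 0. The groups did not overlap in 1 gene with AVP higher, Tnfaip3, against 6.39% of all genes, and in 2 with AVP lower, Traf6 and Peli1, against 7.63%. None of the counts by p or by overlap stood above the share among all genes. Fold changes below 0 were more frequent in the list than among all genes, a difference that was not tested.

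Tnfaip3 encodes A20, a ubiquitin-editing enzyme that shuts off signalling below Toll-like receptors. It was at 55.3, 40.1 and 45.4 FPKM in AVP libraries, against 1.37, 7.19 and 4.07 FPKM in controls. The groups were far apart, with a log2 fold change of 3.44 (SE 0.56), but the gene did not pass by limma over all genes (adjusted p = 0.109). Irak3, which encodes the inhibitory kinase IRAK-M, was at 3.65, 17.9 and 1.84 FPKM in AVP libraries, against 21.5, 29.9 and 13.4 FPKM in controls (log2 fold change -1.70, SE 0.74, adjusted p = 0.589 by limma). Tollip, another brake, was at 0.239 to 13.4 FPKM in AVP libraries and 0.529 to 8.66 FPKM in control libraries.

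The receptors' partners did not separate the groups. Ly96, which encodes MD-2, was at 99.9, 93.4 and 104 FPKM in AVP libraries, against 132, 16.6 and 164 FPKM in controls, where replicate 2 was far below the rest. Ly86, which encodes MD-1, a partner of the Toll-like homologue CD180, was at 44.0, 144 and 36.3 FPKM after AVP and 111, 93.9 and 195 FPKM in controls. Cd36, a scavenger receptor that assists TLR2 with TLR6, was at 2.52 to 4.2 FPKM after AVP and 0 to 8.99 FPKM in controls. Their adjusted p by limma was 0.703 or above.

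The same held for the endosomal machinery. Unc93b1, the chaperone that delivers endosomal Toll-like receptors, was at 25.9 ± 9.09 FPKM after AVP and 30.6 ± 5.12 FPKM in controls (SD, n = 3 each). Hsp90b1, the folding chaperone gp96, was at 28.7 ± 17.6 FPKM after AVP and 23.8 ± 10.2 FPKM in controls, and the endolysosomal transporter Slc15a3 at 24.0 ± 14.2 FPKM after AVP and 17.4 ± 5.52 FPKM in controls (SD, n = 3 each). Of the endosomal proteases, Ctss, which is also a monocyte marker, was at 284 ± 202 FPKM after AVP and 375 ± 126 FPKM in controls (SD, n = 3 each). Ctsb and Ctsl had log2 fold changes of 0.08 and 0.94. None of the 9 tested genes of chaperones, traffic and proteases had an adjusted p below 0.775 by limma.

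Downstream, Myd88, the shared adaptor, was at 83.8 ± 15.2 FPKM after AVP and 95.3 ± 19.8 FPKM in controls (SD, n = 3 each), with a fitted log2 difference of -0.09 (SE 0.30, adjusted p = 0.946 by limma). For the adaptor genes Pik3ap1 and Tirap the log2 fold change was 0.39 (SE 0.56) and -0.41 (SE 0.75). Peli1, a ubiquitin ligase of the pathway, was at 24.9 ± 4.96 FPKM after AVP and 38.6 ± 12.7 FPKM in controls (SD, n = 3 each, adjusted p = 0.787 by limma). Irak4 and Tab2 had log2 fold changes of -0.14 and -0.05, and Traf6, the ubiquitin ligase after the IRAK kinases, was at 0 to 1.01 FPKM after AVP and 1.17 to 2.98 FPKM in controls (adjusted p = 0.661 by limma). The transcription factor genes Irf7, Irf3 and Irf5 had log2 fold changes of -0.03, 0.52 and -0.75. The remaining Toll-like receptors were outside the tested genes: Tlr11 and Tlr12 were listed at 0 in every library, and Tlr3 was at 1.05 FPKM in control replicate 3 and listed at 0 in the other 5.

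**Figure D5:**
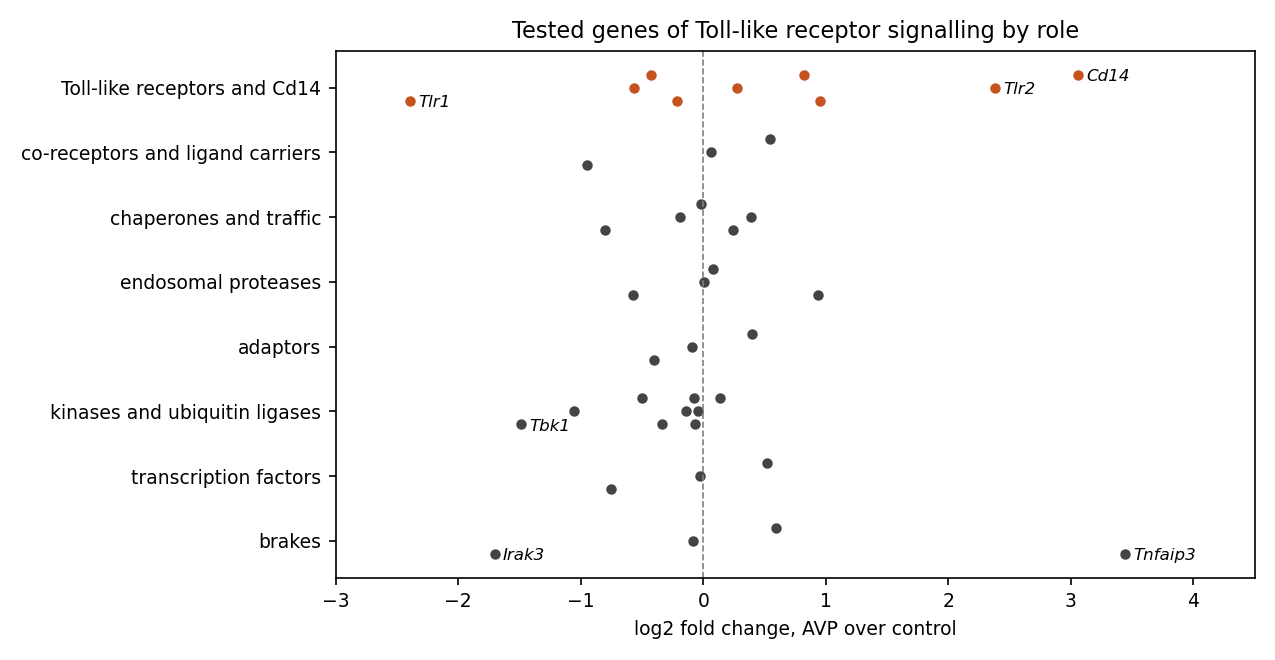
Fitted log2 fold change of AVP over control (x axis) for the 9 Toll-like receptor and Cd14 genes (orange) and 31 other tested genes of the pathway (grey), one point per gene, in rows by role. Genes with a change beyond 1.2 either way are named: Tnfaip3, Cd14 and Tlr2 lie to the right, and Tlr1, Irak3 and Tbk1 to the left, and no gene passed the test over all genes.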

How the data were processed

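Total RNA of sorted blood neutrophils was used for TruSeq libraries, read from both ends for 151 bases, per the labels' protocols. The submitters' processing notes name the mm10 build, HISAT2 2.1 and featureCounts 1.6.4, cutadapt 1.16.5 and bcl2fastq 2.19, and also DESeq2 2.11.40.6, with no role. The deposited values are taken to be FPKM, which was inferred from the values. Since no counts are given, depth is an estimate from the step of low values in short pseudogenes, and an exact 0 is given as listed.

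Scale factors between libraries were trimmed means of log ratios, taken against a geometric mean library, without the outer 30% of ratios and 5% of levels on each side. log2(scaled FPKM + 1) went into limma 3.58.1 (R 4.3.3) with an intensity trend, no replicate term and Benjamini-Hochberg adjustment over the 8523 genes that reached 1 FPKM in 3 or more libraries. Fold changes refer to these logs, which makes them too small for low genes. Printed FPKM are unscaled. Exact permutation tests used log2(FPKM + 1) for genes and plain values for sums and ratios, on the deposited scale (scipy 1.17.1).

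Every member passing the filter is given in full. Of the signalling list, up to 3 genes of highest mean per role are named, and Traf6 and Tbk1 were named after their values were seen. For the pattern search the 4 highest correlations are given. Members and lists were chosen with earlier results of these data known. Gene intervals and promoters are from RefSeq GRCm38.p6, and transcripts from GENCODE M21. Alternatives were other scalings, filters, pseudocounts and moderation, a replicate block, and each library left out.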

Additional observations from a re-analysis of the deposited data

How the results depend on the processing

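Over 16 alternatives, 0 of the Toll-like receptor and Cd14 genes and 0 of the other signalling genes passed the threshold by limma. Over all genes, where 0 passed, the count was 11 with a filter of 5 FPKM, 3 with a pseudocount of 5 and 1 without the intensity trend, and 0 to 4 with each library left out (4 without control replicate 3). Of 136 recomputed fold changes, 132 kept their sign. Tlr6 turned to -0.68 without control replicate 1 (range with a library left out -0.68 to 1.21). Tlr5 turned to 0.0085 with a pseudocount of 5, 0.15 without AVP replicate 1 and 0.16 without AVP replicate 2 (range with a library left out -0.42 to 0.16). The cause was not tested. Tlr2 ranged from 1.94 to 2.85 (adjusted p 0.163 to 0.733), Cd14 from 1.74 to 4.03 (0.367 to 0.733) and Tlr1 from -3.99 to -1.19 (0.288 to 0.733). With a library left out, Tlr4 ranged from -0.79 to -0.15 and Tlr13 from -0.88 to -0.02, both weakest without AVP replicate 3. Groups did not overlap in 3 genes under each of the 3 scalings. With fewer genes tested, Tlr1, Tlr4, Tlr5, Tlr7 and Tlr8 were removed by the 5 FPKM filter, and Tlr5 also without AVP replicate 3, control replicate 2 or control replicate 3. Same-numbered libraries did not deviate together (r across genes 0.020, -0.013 and -0.042). The labels do not say whether the numbers pair samples. These correlations cannot decide it, since paired samples need not deviate together. With a replicate block, 0 genes passed, and the adjusted p of Tlr2 was 0.448. The depth is an estimate, so no counting interval is given.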
